A study of Homo sapiens with 2 samples.

Results

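Integrins and focal adhesion genes were examined in NCI-H460 cells, an established large cell lung carcinoma line whose label gives lung and pleural effusion as the tissue. The members were taken by gene symbol: 17 integrin subunits, 19 adaptor, kinase and cytoskeletal genes, and CD44. All 37 symbols were found, among 58735 genes in the count table. The control library, labelled siControl with the genotype WT, came from cells transfected without an siRNA against CYP4F11. The other, labelled siCYP4F11 with the genotype CYP4F11 knockdown, came from cells given that siRNA, and transfection lasted 24 h. There was 1 library per group, so no difference here has a replicate check, no p-value is given, and each value compares these 2 libraries only.

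Integrins are cell surface receptors made of 1 alpha and 1 beta subunit, which bind matrix proteins such as laminin, fibronectin and collagen outside the cell. Inside the cell, talin and kindlin bind the beta subunit's tail and switch the receptor on, and vinculin, alpha-actinin and filamin tie it to actin. Scaffold proteins such as paxillin, and the kinases FAK and SRC, assemble on this site, the focal adhesion, through which a cell grips its support and moves. The study's title names proliferation and migration as the processes of interest.

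The libraries held 16207785 counts (siControl) and 13002179 counts (siCYP4F11). CPM below is a gene's count per 1e+06 counts after library-size scaling. Genes averaging 1 CPM or more over both libraries are called measured, which applied to 30 of the 37 members and to 13942 genes in all. The siRNA target CYP4F11, a fatty acid omega-hydroxylase, was at 197 and 74.5 CPM in the control and knockdown libraries. The epithelial keratins KRT8, KRT18 and KRT19 were abundant, with siControl levels of 1275, 462 and 1746 CPM, whereas EPCAM had 6 and 8 counts and CDH1, a defining epithelial cadherin, 1 and 0. The 8 leukocyte markers summed to 0.186 and 0.153 CPM, the 4 endothelial markers to 0.0619 and 0.460 CPM, and PTPRC and PECAM1 were at 0 in both. The 5 fibroblast markers summed to 21.1 and 29.8 CPM, with PDGFRA at 0 in both. LUM, which encodes a matrix proteoglycan, made up 12.9 and 19.5 CPM of those sums, and its part in the results below was not tested. The 6 epithelial markers summed to 3509 and 2927 CPM, and their part was not tested either. In such bulk RNA, fewer cells of a type and less RNA per cell cannot be told apart.

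Promoter stretches of 4 members are shown first, because they carry matches to motifs of factors known for actin and adhesion genes. SRF, a factor that responds to actin, binds the CArG box, and TEAD factors, the partners of YAP, bind GGAATG. Of the members, 27 had at least 1 window in RefSeq's promoter sequences (build GRCh38.p14), which run from 250 bases before to 50 bases after a start site. Both strands were searched, and the motifs may overlap. FLNA, ACTN1 and ITGB6 held a CArG box, in 3 of 50 member windows, against 1.29% of 35116 windows of all genes. GGAATG was found in 8 of the 50 windows, those of ITGA5, ITGA10, ITGB1, VCL, ACTN1, TNS1 and PXN, against 14% of all windows. A match is a description of the letters and not a binding site. The stretches run from base -220 to base -81 before the start site, 5′ to 3′ on the gene's own strand, with the motif in capitals. They are chrX:154374715-154374854 on the minus strand for FLNA and chr14:68977647-68977786 on the minus strand for ACTN1. Those of the other two are chr10:73997896-73998035 on the plus strand for VCL and chr10:32958311-32958450 on the minus strand for ITGB1.
FLNA: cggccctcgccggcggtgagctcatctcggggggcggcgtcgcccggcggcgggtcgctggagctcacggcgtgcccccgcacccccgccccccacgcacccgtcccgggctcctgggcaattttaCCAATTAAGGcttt
ACTN1: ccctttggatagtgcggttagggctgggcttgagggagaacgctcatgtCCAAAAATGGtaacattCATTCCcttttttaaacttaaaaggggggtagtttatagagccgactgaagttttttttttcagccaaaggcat
VCL: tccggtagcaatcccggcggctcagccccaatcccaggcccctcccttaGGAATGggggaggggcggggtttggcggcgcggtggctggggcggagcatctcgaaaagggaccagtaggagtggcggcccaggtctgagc
ITGB1: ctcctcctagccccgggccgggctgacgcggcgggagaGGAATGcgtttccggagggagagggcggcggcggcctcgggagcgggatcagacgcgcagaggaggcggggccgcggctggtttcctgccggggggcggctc
The FLNA stretch has the CArG box close to its 3′ end, and the ACTN1 stretch holds it beside a TEAD motif read on the opposite strand. Members with GGAATG went both ways. VCL and ITGA5 were higher in the siCYP4F11 library, and ACTN1 and PXN were lower. The direction of ITGB1 turned with the GC correction described below. Of those with a CArG box, FLNA and ACTN1 were lower, and ITGB6 had 4 and 0 counts.

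Across the members the differences were small and went both ways. No member passed a 2-fold rule, which asks for a log2 ratio of siCYP4F11 over siControl of at least 1 in size and a 95% counting interval that excludes 0. Of all measured genes, 1.96% passed it, 1.26% on the lower and 0.703% on the higher side. At 1.5-fold, 1 member passed, the talin gene TLN2 on the lower side, where 3.44% of all measured genes passed, and 2.04% did on the higher side. By the counting interval alone, 13 of 30 members were lower and 7 were higher, and the intervals of 10 held 0. Over all measured genes 37.8% had an interval off 0, 19.2% lower and 18.6% higher. Well counted genes have narrow intervals, so the share depends on the level. Among genes averaging 50 CPM or more, 9 of 18 members were lower and 6 higher. The shares of all 4329 genes in this range were 29.1% and 29.2%, or 58.3% in either direction. Ratios over all genes varied more than reads alone would make them. Their SD on the log2 scale was 0.18 from 100 CPM upwards, against 0.040 from counting. The SD was 0.26 from 10 to 50 CPM, against 0.12, and 0.40 from 3 to 10 CPM, the range of TLN2, against 0.24. An interval that excludes 0 therefore covers counting error only and says nothing of the spread between cultures. The plot of log2 ratios by role shows each measured member.

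**Figure D1:**
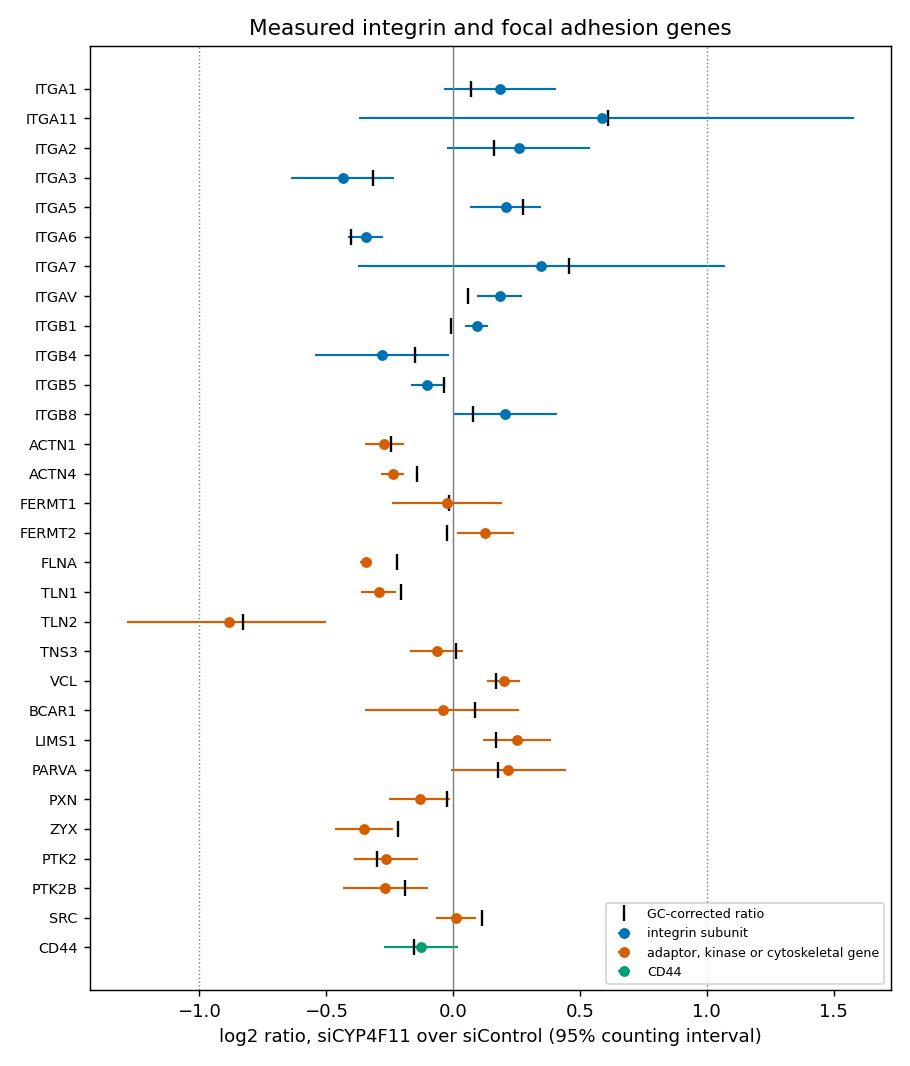
The log2 ratio of siCYP4F11 over siControl (x axis) is plotted for the 30 measured members in order of role, with points for ratios, bars for 95% counting intervals and black ticks for ratios corrected for transcript GC content. No point reaches the dotted 2-fold lines, TLN2 lies furthest to the left at -0.88, and integrin subunits lie on both sides of 0.

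Integrin subunits were split by the counting interval, with 4 of 12 higher, 4 lower and 4 whose interval held 0. Of the adaptor, kinase and cytoskeletal genes, 9 of 17 were lower and 3 higher. Among all measured genes 19.2% were lower and 18.6% higher, and among those averaging 50 CPM or more 29.1% and 29.2%. The 12 measured integrin subunits had a median log2 ratio of 0.19, with 8 above 0 and 4 below. That median turned to -0.0034 with no filter on low counts, and the ratio of their summed counts was -0.016. The 17 measured adaptor, kinase and cytoskeletal genes had a median of -0.13, with 5 above 0 and 12 below. Both stood on either side of all measured genes, whose median was -0.0055 and of which 50.8% were below 0. The medians differed by 0.32. Transcript GC content moved with this difference: the median was 46.3% for the integrin subunits and 55.6% for the adaptor, kinase and cytoskeletal genes. After the ratios were corrected for GC content, by subtracting the smooth trend of all genes' ratios over it, the medians were 0.066 and -0.024, a difference of 0.090. The counts of genes below 0 were then 5 of 12 and 11 of 17.

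The relation with GC content was not limited to the members. Among 9590 genes averaging 10 CPM or more, the Spearman correlation of log2 ratio with GC content was -0.42, across genes of the same 2 libraries, which are not independent replicates. It was -0.49 across the 30 measured members. Of the members above the median GC content of these 9590 genes, 14 of 18 had a ratio below 0, as did 65.8% of the genes there. Of those at or below it, 3 of 12 had a ratio below 0, against 34% of the genes there. ITGA6, PTK2 and CD44 were the 3 low-GC members with a ratio below 0. The high-GC members above 0 were ITGA5, ITGA7, ITGA11 and SRC, of which ITGA5 had an interval that excluded 0.

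**Figure D2:**
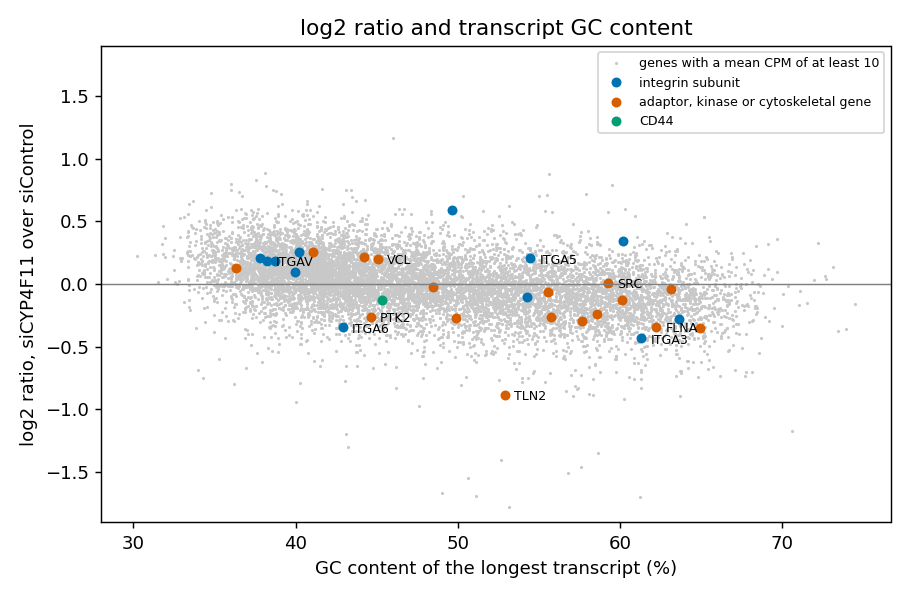
The log2 ratio of siCYP4F11 over siControl (y axis) is plotted against the GC content of each gene's longest transcript in percent (x axis), in grey for 9590 genes averaging 10 CPM or more and in colour for the 30 measured members. Ratios decline with GC content among the genes in grey, and ITGA6 and PTK2 lie low among genes of low GC content.

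Per length of gene model, the cells held mostly beta 1, beta 5, alpha 6 and alpha V transcripts. ITGB1, the beta subunit shared by most integrins, was at 92.5 CPM per kilobase in siControl and 98.7 in siCYP4F11. ITGB5, which pairs with alpha V to bind vitronectin, was at 45.2 and 42.2 CPM per kilobase, and ITGA6, a laminin-binding alpha subunit, at 42.3 and 33.4. ITGAV, the alpha subunit that pairs with beta 1, 3, 5, 6 or 8, was at 16.3 and 18.5 CPM per kilobase. The fibronectin-binding subunit ITGA5 followed at 7.27 and 8.39 CPM per kilobase and ITGA3, another laminin-binding subunit, at 3.37 and 2.49. ITGB4, ITGB8, ITGA2 and ITGA1 lay between 1.21 and 2.78 CPM per kilobase in siControl. Within siControl, the counting intervals of neighbours overlapped for ITGA3 with ITGB4, for ITGB8 with ITGA2 and for each neighbouring pair from ITGA7 downwards. The order was the same in both libraries for the first 7 subunits.

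The alpha subunits summed to 72.7 CPM per kilobase in siControl and 66.8 in siCYP4F11, and the beta subunits to 142 and 145. Within the alpha sum, ITGA6 made up 58.2% in siControl and 49.97% in siCYP4F11. The share of ITGAV was 22.4% and 27.7%, and that of ITGA5 was 10.0% and 12.6%. Within the beta sum, ITGB1 made up 64.9% and 68.0%. The alpha 6 transcript thus took a smaller part of the alpha pool in the siCYP4F11 library, while it remained the most abundant alpha subunit there.

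**Figure D3:**
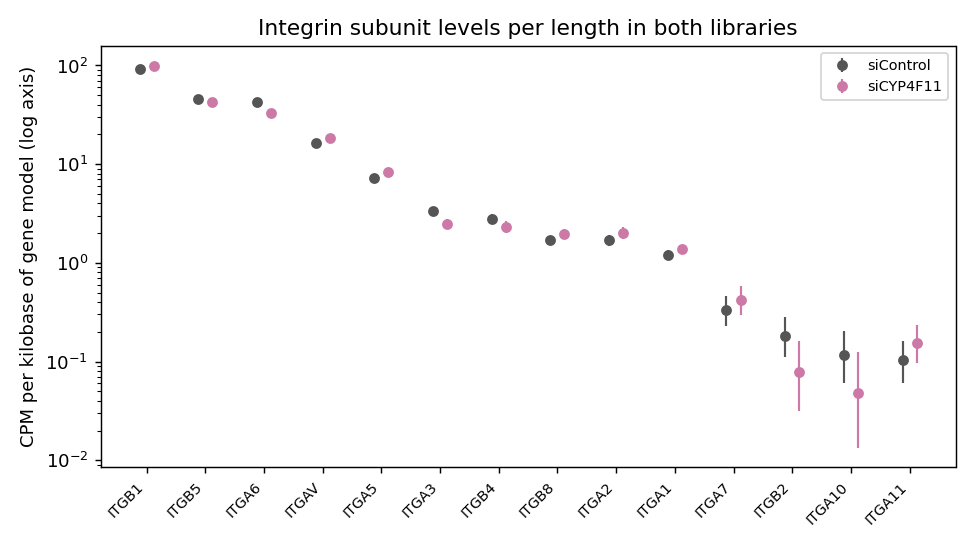
Levels of 14 integrin subunits with reads in both libraries are plotted as CPM per kilobase of gene model on a log axis, siControl in grey and siCYP4F11 in pink, with 95% counting intervals. ITGB1 is highest at 92.5 and 98.7. The alpha subunits ITGA6, at 42.3 and 33.4, and ITGA3, at 3.37 and 2.49, are lower in siCYP4F11.

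The laminin-binding subunits are a class named after the values were seen. Of these, 3 of the 4 measured were lower by the counting interval. Of all measured genes 19.2% were lower, and 29.1% of those averaging 50 CPM or more. ITGA6 (chromosome 2, 172427354 to 172506282 on GRCh38, plus strand) had 4465 counts in siControl and 2845 in siCYP4F11, or 277 and 218 CPM. Its log2 ratio was -0.34 (95% counting interval -0.41 to -0.28), which is 78.8% of the control level. Among the 4329 genes averaging 50 CPM or more, 168 had a lower ratio. Corrected for GC content, the ratio was -0.40, further from 0 than without the correction.

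ITGA3 (chromosome 17, 50055968 to 50090481, plus strand), which pairs with beta 1 and binds laminins of the lung basement membrane, had 533 counts in siControl and 319 in siCYP4F11. These were 33.0 and 24.4 CPM, a log2 ratio of -0.43 (-0.64 to -0.23), and -0.32 with the GC correction. ITGB4, the partner of alpha 6 in hemidesmosomes, had 303 and 202 counts, or 18.8 and 15.5 CPM. On the log2 scale this was -0.28 (-0.54 to -0.017), and -0.15 with the GC correction. ITGA7, a laminin receptor subunit best known from muscle, had 34 and 35 counts, and the interval around its ratio of 0.35 ran from -0.38 to 1.07, so its direction was not settled at this depth.

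The subunits of receptors for RGD motifs, the short sequence in fibronectin and vitronectin that these integrins recognise, were mostly slightly higher. By the counting interval 3 of the 4 measured were higher and 1 was lower. Of all measured genes 18.6% were higher, and 29.2% of those averaging 50 CPM or more. This class was also named after the values were seen. ITGA5, which binds fibronectin with beta 1, had 889 counts in siControl and 830 in siCYP4F11, or 55.1 and 63.6 CPM. Its log2 ratio was 0.21 (0.069 to 0.35), and 0.28 with the GC correction. ITGAV had 2157 and 1982 counts, or 134 and 152 CPM, a log2 ratio of 0.18 (0.096 to 0.27). With the GC correction ITGAV was at 0.061, below the lower end of that interval.

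ITGB8, which with alpha V activates latent TGF-beta, had 420 and 392 counts, or 26.0 and 30.0 CPM. The log2 ratio was 0.21 (0.0045 to 0.41), and 0.078 with the GC correction. ITGB5 had 4708 and 3551 counts, or 292 and 272 CPM, a log2 ratio of -0.10 (-0.16 to -0.037), and -0.033 with the GC correction. ITGB1 had 8973 and 7743 counts, or 556 and 593 CPM, a log2 ratio of 0.094 (0.050 to 0.14). With the GC correction ITGB1 was at -0.0064, so its direction turned. Between ITGA6 and ITGB1, one of its partners, the log2 ratios differed by -0.44 (counting interval -0.52 to -0.36), and by -0.39 with the GC correction. Between ITGA6 and ITGA5 they differed by -0.55 (-0.70 to -0.40), and by -0.68 with it.

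Among the collagen receptors, none of the measured subunits had an interval that excluded 0. On the log2 scale ITGA1 was at 0.19 (-0.033 to 0.40) from 362 and 333 counts, ITGA2 at 0.26 (-0.023 to 0.54) from 216 and 209, and ITGA11 at 0.59 (-0.37 to 1.58) from 18 and 22. Subunits below a mean CPM of 1 were not counted above. ITGA10, another collagen receptor subunit, had 12 counts in siControl and 4 in siCYP4F11, and ITGB2, the beta subunit of leukocyte integrins, had 20 and 7, with intervals that held 0 for both. ITGB6 had 4 and 0 counts and ITGA4 had 2 and 0. ITGB3 had 0 reads in both, under the floor of 3 counts, which is 0.186 CPM in the control and 0.230 CPM in the knockdown library. Over 51.6% of its exon bases ITGB3 overlaps another annotated gene on the same strand, AC068234.1, which also had 0 reads.

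**Figure D4:**
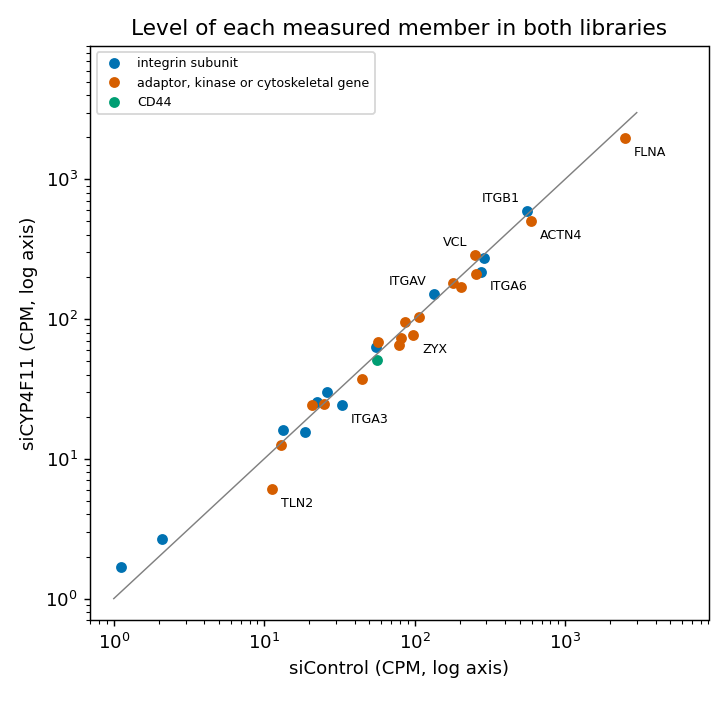
Each of the 30 measured members is plotted by its CPM in siControl (x axis) and in siCYP4F11 (y axis), both on log axes, with the line of equal levels in grey. FLNA is the most counted member at 2489 and 1963 CPM, TLN2 lies below the line at 11.3 and 6.13 CPM, and most other members stay close to it.

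Of the 9 measured integrin activators and actin linkers, 5 were lower and 2 higher by the counting interval. Of all measured genes 19.2% were lower and 18.6% higher, and 29.1% and 29.2% of those averaging 50 CPM or more. FLNA, filamin A, which crosslinks actin and binds beta subunit tails, had 40178 counts in siControl and 25630 in siCYP4F11. FLNA lies on the minus strand of chromosome X from 154348524 to 154374638. At 2489 and 1963 CPM it made up 40.9% and 36.5% of all members' counts. Its log2 ratio was -0.34 (-0.36 to -0.32), or 78.9% of the control level, and -0.22 with the GC correction. Among the same 4329 genes, 170 had a lower ratio than FLNA.

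TLN1, the main talin of most cells, had 4140 and 2734 counts, or 256 and 209 CPM, a log2 ratio of -0.29 (-0.36 to -0.22), and -0.20 with the GC correction. TLN2, its second gene, was far less abundant, with 183 and 80 counts, or 11.3 and 6.13 CPM. The log2 ratio of TLN2 was -0.88 (-1.29 to -0.50), the furthest from 0 of the 30 measured members, and -0.83 with the GC correction. Its level was 54.2% of the control. TLN2 lies on the plus strand of chromosome 15 from 62390526 to 62844631, and 5.23% of its exon bases overlap another gene on the opposite strand. The log2 ratios of TLN2 and TLN1 differed by -0.59 (counting interval -0.98 to -0.20), and by -0.62 with the GC correction.

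The alpha-actinins, which bundle actin at adhesions, were both lower. ACTN4 had 9637 and 6617 counts, or 597 and 507 CPM, a log2 ratio of -0.24 (-0.28 to -0.19). ACTN1 had 3297 and 2212 counts, or 204 and 169 CPM, a log2 ratio of -0.27 (-0.35 to -0.19). Their difference was 0.033 with a counting interval from -0.057 to 0.12, which held 0. With the GC correction they were at -0.14 and -0.24, and differed by 0.105.

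Vinculin and the kindlin FERMT2 went the other way. VCL, which reinforces the link from talin to actin, had 4047 and 3760 counts, or 251 and 288 CPM. The log2 ratio of VCL was 0.20 (0.14 to 0.26), and 0.17 with the GC correction. The ratios of VCL and TLN1 differed by 0.49 (0.40 to 0.59), and by 0.37 with the GC correction. FERMT2, kindlin-2, which activates integrins together with talin, had 1402 and 1239 counts, or 86.8 and 94.9 CPM, a log2 ratio of 0.13 (0.017 to 0.24). With the GC correction FERMT2 was at -0.024, so its direction turned. FERMT1, the epithelial kindlin, was at -0.021 (-0.24 to 0.19) with 403 and 321 counts. The tensin TNS3 was at -0.063 (-0.17 to 0.040) with 1734 and 1342 counts. TNS1 had 0 counts in siControl and 4 in siCYP4F11, and its interval held 0.

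Among the scaffold adaptors, zyxin was lower and PINCH-1 higher. ZYX, a LIM protein recruited to adhesions under tension, had 1581 and 1003 counts, or 97.9 and 76.8 CPM. That is a log2 ratio of -0.35 (-0.47 to -0.24), and -0.22 with the GC correction. PXN, paxillin, had 1304 and 963 counts, or 80.8 and 73.8 CPM, a log2 ratio of -0.13 (-0.25 to -0.0097), and -0.022 with the GC correction. LIMS1, which encodes PINCH-1, had 922 and 888 counts, or 57.1 and 68.0 CPM, a log2 ratio of 0.25 (0.12 to 0.39), and 0.17 with the GC correction. LIMS1 shares 21.1% of its 50-base words with transcripts of other genes, mainly LIMS3. LIMS3 and LIMS4 had 0 reads in both libraries. PARVA, the parvin that completes the complex of ILK and PINCH, was at 0.22 (-0.0084 to 0.44), and the scaffold BCAR1 (p130Cas) at -0.041 (-0.34 to 0.26).

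ILK, the pseudokinase at the centre of that complex, had 13 counts in siControl and 11 in siCYP4F11, below a mean CPM of 1. ILK lies on the plus strand of chromosome 11 from 6603708 to 6610874, and 78.5% of its exon bases overlap exons of other genes. The largest overlap, 68.1%, is with TAF10 on the opposite strand (6606296 to 6612667), which had 178 and 102 counts. Whether the counting used the strand is unknown, and so is how reads in the overlap were assigned. The ILK counts were therefore not read as its level. Among the members measured, ACTN4, PXN and VCL had 14.2%, 12.4% and 11.1% of their exon bases in such overlaps, mainly with genes on the opposite strand.

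Of the adhesion kinases, both FAK family genes were lower, and the interval of SRC held 0. PTK2, which encodes FAK, had 1269 and 855 counts, or 78.6 and 65.5 CPM. Its log2 ratio was -0.26 (-0.39 to -0.14), and -0.30 with the GC correction. PTK2B, which encodes the related kinase PYK2, had 727 and 489 counts, or 45.04 and 37.5 CPM, a log2 ratio of -0.27 (-0.43 to -0.098), and -0.19 with the GC correction. The ratios of PTK2 and PTK2B differed by 0.0022 with a counting interval from -0.21 to 0.21, and by -0.11 with the GC correction. SRC had 2898 and 2364 counts, or 180 and 181 CPM, a log2 ratio of 0.013 (-0.066 to 0.091). CD44, the hyaluronan receptor, had 904 and 670 counts, or 56.0 and 51.3 CPM, a log2 ratio of -0.13 (-0.27 to 0.020), so its direction was not settled.

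**Figure D5:**
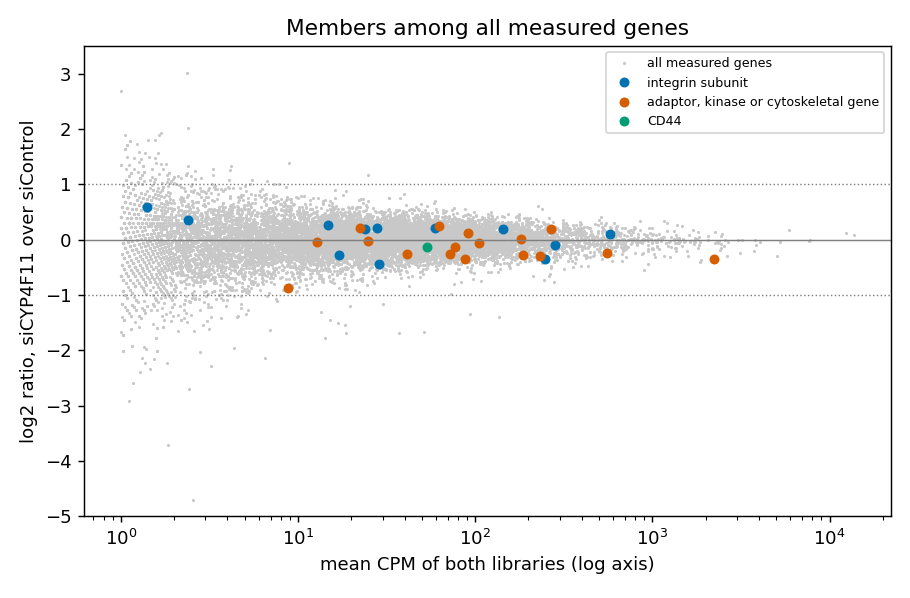
The log2 ratio of siCYP4F11 over siControl (y axis) is plotted against mean CPM on a log axis, in grey for 13942 measured genes and in colour for the 30 measured members, with dotted lines at 2-fold. The members lie within the cloud of all genes, and the members of highest level, FLNA, ITGB1 and ACTN4, lie at -0.34, 0.094 and -0.24.

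Other genes of the pathway were read from 5 lists. None of their measured members passed the 1.5-fold rule, against 5.47% of all measured genes in either direction. Below a mean CPM of 1, ITGAD, an integrin subunit of leukocytes, had 11 counts in siControl and 1 in siCYP4F11. Its log2 ratio of -2.63 (-8.58 to -0.37) is past the 2-fold rule. The shares given for that rule cover measured genes only, so none is at hand for genes with so few counts. In the same list ITGA9 had 9 and 2 counts and an interval that held 0. The counts by interval below stand against 19.2% lower and 18.6% higher of all measured genes, and 29.1% and 29.2% of those averaging 50 CPM or more. Of 46 other focal adhesion adaptors and kinases, 40 were measured and 29 of these had a ratio below 0, with 17 lower and 6 higher by the counting interval and a median of -0.10, where 50.8% of all measured genes were below 0. PARVB, a second parvin, was at -0.56 (-0.75 to -0.37) with 633 and 348 counts. CSRP1, a LIM protein of the actin cytoskeleton, was at -0.38 (-0.42 to -0.34) with 12360 and 7677 counts, and the tensin TNS2 at -0.46 (-0.62 to -0.30) with 879 and 518. With the GC correction 26 of the 40 were below 0 and the median was -0.081.

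Of 18 matrix ligands of integrins, 14 were measured, with 5 lower and 2 higher and a median of -0.14. Of all measured genes 19.2% were lower and 18.6% higher, and 29.1% and 29.2% of those averaging 50 CPM or more. LAMA5, the alpha chain of laminins that integrins with alpha 3 or alpha 6 bind, had 10853 and 6724 counts, a log2 ratio of -0.38 (-0.43 to -0.34), and -0.25 with the GC correction. FN1, fibronectin, had 89806 and 59241 counts, or 5563 and 4538 CPM, a log2 ratio of -0.29 (-0.31 to -0.28), and -0.36 with the GC correction. SPP1, osteopontin, an RGD protein, had 20281 and 19810 counts and was at 0.27 (0.24 to 0.30). Of the 6 laminin chains in the list, a class named after the values were seen, 5 had a ratio below 0, as did 50.8% of all measured genes, and 3 were lower by the counting interval, against 19.2%.

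Of 16 genes of integrin trafficking and membrane partners, 14 were measured, with 4 lower and 3 higher and a median of 0.013. The shares of all measured genes were 19.2% lower and 18.6% higher, and 29.1% and 29.2% from 50 CPM upwards. In that list the urokinase receptor PLAUR was at -0.30 (-0.45 to -0.16), CD47, a partner of alpha V beta 3, at 0.29 (0.093 to 0.49), and the tetraspanin CD63 at 0.14 (0.081 to 0.19). Of 9 hyaluronan and CD44 partners, 7 were measured, with 3 lower and 0 higher against the same shares, and a median of -0.079. The intervals of the other 4 held 0. The lower ones were EZR at -0.22 (-0.27 to -0.17), MSN at -0.14 (-0.18 to -0.094) and NF2 at -0.21 (-0.36 to -0.068). They encode ezrin, moesin and merlin. Of the 9 other integrin subunits, ITGAE and ITGA2B were measured. ITGAE, known from lymphocytes of epithelia, had 643 and 610 counts and was at 0.23 (0.068 to 0.39), while ITGAL and ITGAM had 0 reads in both.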

How the data were processed

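Poly-A RNA was sequenced from directional libraries in which dUTP marks the strand, per the labels' protocols. The authors deposited raw read counts per gene, with gene lengths. The build GRCh38 and the tools HISAT2 2.2.1, edgeR 4.0.16, featureCounts 2.0.6 and fastp are listed in the submitters' processing notes. What each was used for, and the strand setting, is not given in the sources used here. All 58735 genes match GENCODE release 29 by ID, symbol and coordinates. Columns of other samples numbered 0.

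CPM used TMM effective library sizes (edgeR 4.0.16, R 4.3.3), with factors of 0.996 and 1.00. Log2 ratios had 0.5 added to each count. Their 95% intervals are exact Clopper-Pearson intervals of the siCYP4F11 share of both counts. With 1 library per group they cover counting error only. They treat reads as independent draws, although reads are not independent molecules. Intervals for differences between 2 genes use a normal approximation on the counts. List medians are descriptions. GC content is that of a gene's longest GENCODE transcript, and the GC correction subtracts a lowess fit (span 0.3, statsmodels 0.14.6). The calculations were tested on simulated counts.

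Members and lists were chosen with earlier results of these data known. Members whose interval excludes 0 were given in full, and per pathway list up to 3 measured genes whose interval excludes 0, ranked by the bound nearest 0. Others, such as TAF10, LIMS3, the laminin chain counts and the gene pairs compared, were chosen after values were seen. Some items of the pathway lists are not reported here. Alternatives were total counts, DESeq2 1.42.0 size factors, upper-quartile factors, 2 added to each count, other CPM filters and thresholds, means, summed counts and the GC correction.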

Additional observations from a re-analysis of the deposited data

How the results depend on the processing

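No paired analysis was possible because there was 1 library per group, and no library could be left out. The number of members past the rule was 0 lower and 0 higher at 2-fold under each scaling, added count, filter and the GC correction. A 1.5-fold threshold gave 1 lower, and the counting interval with no fold threshold gave 13 lower and 7 higher, which follows from a laxer rule. The integrin median of 0.19 turned to -0.0034 with no filter on low counts and to -0.016 for summed counts. The first adds subunits with few reads, and the second is led by the most counted subunits. The median of the adaptor, kinase and cytoskeletal genes kept its sign under every alternative run. Of 20 member ratios whose interval excludes 0, all stayed within their counting interval under the other scalings and with 2 added to each count. With the GC correction ITGB1 turned to -0.0064 and FERMT2 to -0.024, and 6 more left their intervals on the same side of 0. The cause was not tested. Depth limits the 2 measured members with a mean CPM from 1 to 3 most. Over all 2071 genes in that range, reads alone give log2 ratios an SD of 0.44.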

Other observations

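Some gene pairs of 1 family differed from each other beyond counting error, and the pairs were chosen after their values were seen. The intervals for ACTN4 with ACTN1, PTK2 with PTK2B and FERMT1 with FERMT2 held 0. Ratios of all genes also varied beyond counting, with an SD of 0.26 from 10 to 50 CPM, against 0.12. How often any 2 genes at these levels differ so was not counted. PARVB had a log2 ratio of -0.56 and PARVA, the parvin counted among the members, 0.22, a difference of -0.77 (counting interval -1.06 to -0.48), and -0.68 with the GC correction. TNS2 was at -0.46 and TNS3 at -0.063, a difference of -0.39 (-0.58 to -0.21), and -0.35 with the GC correction. ITGA3 and ITGA5, which both pair with beta 1, differed by -0.64 (-0.88 to -0.40), and by -0.59 with the GC correction.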
